A study of Mus musculus with 36 samples.

Results

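The liver RNA of 17 of the study's 36 mice is described here, namely the 7 mice labelled as treated under the standard diet and the 10 mice labelled as treated under the high-fat diet (HFD). They were chosen by their labels alone, and all 17 received Fc(mML1)B3. This protein is an immunoglobulin Fc fragment that carries a grafted cyclic peptide, which binds and activates Met, the receptor of hepatocyte growth factor (HGF). The other 19 mice received Fc without the peptide (10 with the HFD, 9 with the standard diet) and serve here as a second measurement of the same diet contrast. All mice were male C57BL/6J, bought at 7 weeks of age, kept for 1 week and then fed for 12 weeks a choline-deficient, amino acid-defined high-fat diet (CDAHFD), which brings on steatosis, inflammation and fibrosis. All 36 mice had thus been through CDAHFD, and no mouse killed before treatment was analysed here.

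Under the HFD, which holds choline and draws 60% of its energy from fat, treated mice had weekly injections of 5 mg/kg Fc(mML1)B3, 2 in all, over 2 weeks. Under the standard diet they received 5 mg/kg on days 1, 4 and 7, in 3 injections, and were killed after 10 days of treatment. Fc was given at 4.3 mg/kg on the same schedules. The diet thus goes together with the experiment, the number and spacing of the injections and the numbers in the file labels. It also goes with the time since CDAHFD was withdrawn and the time since the last injection, and all of these cannot be told apart. The time of day at which the livers were taken is not given in the sources used here. Every value below is the difference between these 2 treated groups as wholes, given as standard diet minus HFD.

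A liver recovering from choline-deficient feeding changes its gene expression on several levels at once. Hepatocytes make fat from sugar when insulin and SREBP1c are active and burn it when fatty acids activate PPARalpha, and both programmes are tied to the feeding rhythm set by the circadian clock. In fibrosis, stellate cells become contractile and deposit collagen, macrophages take up lipid, and hepatocytes secrete acute phase proteins.

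The 17 libraries held 14949035 to 28466853 counts. The HFD libraries were shallower, with a median of 20147652 counts against 25968982 under the standard diet, and 13627 of 24421 genes had enough counts to be tested. On the first principal component of log2 CPM, the counts scaled to library size, which held 32.2% of the variance, all 7 standard diet mice had scores from 19.3 to 42.7 and all 10 HFD mice scores from -53.5 to -2.84. The share of variance between the groups was 28.9% (p = 5.14e-05 in an exact permutation test of that share, one-sided for higher shares, as low as its 19448 groupings of the mice can go). HFD mouse 5 stood apart from the other HFD mice on both components, with a second score of -42.7. The HFD group, that mouse included, was the more variable one, with a median SD of log2(CPM + 1) over genes of 0.225 against 0.143 and the larger SD in 85% of the tested genes. Within the HFD group the numbers in the file labels form separate runs for mice 1 to 4 and mice 5 to 10, so each list's counts against either run alone, called below the first and the second run, are given for those of at least 10 tested genes whose counts in the runs differ by 2 or more genes and over 1.5 times.

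**Figure D1:**
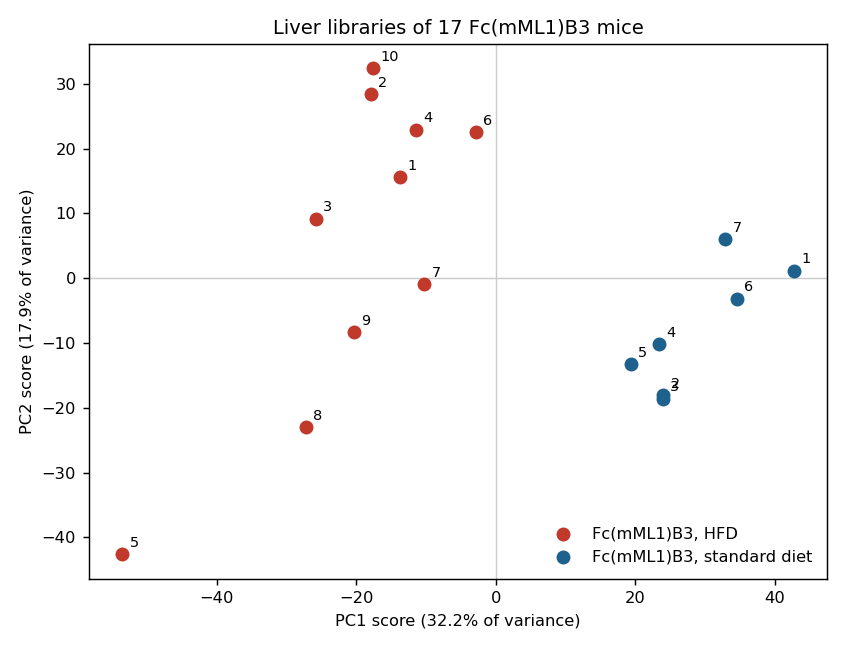
Scores of the 17 Fc(mML1)B3 livers on the first (x axis) and second (y axis) principal components of log2 CPM, 1 point per mouse, numbered within its group. The 7 standard diet mice lie at 19.3 or above on the first component and the 10 HFD mice at -2.84 or below, and HFD mouse 5 lies alone at the lower left.

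A gene is called here when edgeR's quasi-likelihood test gave a Benjamini-Hochberg adjusted p below 0.05 and the fold change exceeded 2. By this rule 247 genes were higher under the standard diet (1.81% of those tested) and 204 were lower (1.5%). With upper-quartile scaling the same rule gave 221 higher and 273 lower, a share of higher calls of 44.7% in place of 54.8%. Without the fold limit, an adjusted p below 0.05 was reached by 2598 genes that were higher (19.1%) and 2608 that were lower (19.1%), and these shares are the background for each list below. "Rose" and "fell" are used for genes that passed this adjusted p, and other changes are given as values. A single value with ± in the text is a log2 fold change with its standard error (SE), from 7 standard diet and 10 HFD mice. The 2 groups of mice did not overlap at all for 1027 genes that were higher (7.54%) and 366 that were lower (2.69%), and the median log2 fold change of all tested genes was -0.04. Lists are described by counts and medians alone. In whole liver, fewer cells of a type and less RNA per cell cannot be told apart.

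The circadian clock held the highest share of called genes among the lists with at least 10 tested genes. Of 20 tested members, 8 rose (7 called) and 6 fell (4 called), with a median log2 fold change of 0.16. With a trend over gene length taken out, as many rose (5 called) and fell (4 called), and the median was -0.01. Arntl (Bmal1), which pairs with Clock or Npas2 to switch on the day genes, measured 6.59 to 28.6 CPM (median 19.7) in the HFD mice and 0.920 to 3.38 CPM (median 1.5) in the standard diet mice, so no HFD mouse was as low as any standard diet mouse (log2 fold change -3.30 ± 0.34 (SE), adjusted p = 3.24e-07). Nfil3, a repressor that opposes Dbp and its relatives, measured 24.7 to 53.3 CPM (median 39.2) in the HFD mice and 8.99 to 17.4 CPM (median 13.4) in the standard diet mice, again without overlap (log2 fold change -1.54 ± 0.16 (SE), adjusted p = 3.56e-07). Cry1, a late repressor of the clock, measured 29.1 to 64.3 CPM (median 51.2) in the HFD mice and 11.5 to 22.9 CPM (median 13.6) in the standard diet mice, also without overlap.

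Several known targets of Arntl and Clock were higher instead. Dbp, an activator of rhythmic output genes, ranged over 3.14 to 24.8 CPM (median 6.33) in the HFD mice and 55.2 to 113 CPM (median 66.9) in the standard diet mice, and the groups did not overlap (log2 fold change 2.89 ± 0.35 (SE), adjusted p = 2.80e-06). The related factor Tef (1.07 ± 0.10 on the log2 scale) and Per3, a period gene (1.30 ± 0.15), were higher without overlap too. Nr1d2, one of the paired REV-ERB repressors that hold Arntl down, measured 19.7 to 59.6 CPM (median 34.5) in the HFD mice and 92.5 to 127 CPM (median 104) in the standard diet mice. The following clock genes were picked after their values had been seen. The other REV-ERB gene, Nr1d1, was higher by 1.92 ± 0.27 log2, and Ciart, a repressor of the Clock complex, by 2.19 ± 0.34. Per1 was higher by 1.04 ± 0.20 log2 with overlapping mice, and Npas2 was lower (-2.45 ± 0.67). Npas2 was scarce, with 0.0851 to 0.412 CPM in HFD mice 1 to 4, 0.556 to 3.70 CPM in HFD mice 5 to 10 and 0.0414 to 0.525 CPM under the standard diet, so its difference rests on the second run. Bhlhe41, another repressor under clock control, was measured at 0.14 ± 0.24 log2 (adjusted p = 0.673).

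The short promoter stretches in which the known binding letters of clock factors were found are shown for 8 clock genes, because these letters are what ties the loop's members to each other. RefSeq promoters (GRCm38.p6, from 250 bases before to 50 after the gene's start) were at hand for 17 of the 20 clock genes. They were searched on both strands for the E-box CACGTG, bound by the Arntl complexes, for the D-box TTATGTAA, bound by Dbp, Tef and Nfil3, and for TAGGTCA, the core bound by REV-ERB receptors and their relatives. No motif overlaps another in these windows, and TGACCTA in Nfil3 is the receptor core read on the other strand. Of all 32851 promoters in the table, 7.15% hold the E-box, 0.938% the D-box and 2.61% the receptor core. In the clock list, with 22 promoters for 17 genes, 5 genes hold an E-box, 1 a D-box and 2 a receptor core. These are counts of genes, whereas the shares above are of promoters. Motifs are in capitals and each stretch runs 5′ to 3′ along its gene, on the strand given. Among genes that rose, Ciart (chr3:95882237-95882374, minus strand) holds 3 E-boxes, and Tef (chr15:81802516-81802581, plus strand) and Per1 (chr11:69098753-69098818, plus strand) hold 1 each in the stretch shown. Per3 (chr4:151044786-151044900, minus strand) holds the D-box at 2 places. Among genes that fell, Arntl (chr7:113207530-113207558, plus strand, just after the start) and Nfil3 (chr13:52981040-52981081, minus strand) hold the receptor core, and Cry1 (chr10:85185079-85185144, minus strand) holds an E-box. Bhlhe41 (chr6:145865538-145865603, minus strand), which did not pass the test, also holds an E-box.
Ciart: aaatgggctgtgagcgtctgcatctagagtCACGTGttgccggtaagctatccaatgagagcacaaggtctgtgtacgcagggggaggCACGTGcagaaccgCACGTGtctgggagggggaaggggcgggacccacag
Tef: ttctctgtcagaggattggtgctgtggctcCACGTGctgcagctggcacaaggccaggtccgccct
Per1: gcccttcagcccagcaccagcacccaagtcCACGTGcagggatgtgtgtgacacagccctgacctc
Per3: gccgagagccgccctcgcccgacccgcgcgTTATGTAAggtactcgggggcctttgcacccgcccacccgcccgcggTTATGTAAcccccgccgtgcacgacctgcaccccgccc
Arntl: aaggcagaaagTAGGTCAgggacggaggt
Nfil3: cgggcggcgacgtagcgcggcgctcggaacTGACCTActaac
Cry1: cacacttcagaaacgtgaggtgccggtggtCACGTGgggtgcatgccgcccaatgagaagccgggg
Bhlhe41: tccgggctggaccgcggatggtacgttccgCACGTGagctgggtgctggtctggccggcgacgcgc
The letters describe the sequence only, and whether a factor was bound in these livers was not measured. The E-box stands in genes of both directions, in Ciart, Tef and Per1, which rose, and in Cry1, which fell. Both genes that hold the receptor core fell.

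The Fc mice, which share no library with the treated mice, gave another picture of the same genes. Arntl had medians of 1.14 CPM under the HFD and 3.63 CPM under the standard diet in Fc mice, a change of 1.73 on the log2 scale where the treated mice had -3.30. The difference between the 2 contrasts was -5.02 (interaction adjusted p = 1.48e-10). Dbp went from 97.8 to 71.3 CPM at the medians of the Fc mice (-0.55 on the log2 scale, interaction adjusted p = 4.86e-08). Over the list, 15 of 20 clock genes had an interaction with an adjusted p below 0.05, 10 above and 5 below 0. As the plot of clock genes by mouse shows, the treated HFD mice lay apart from the other 3 groups for Arntl, Nfil3, Cry1, Dbp, Nr1d1 and Nr1d2. The hour of collection is not known for any group, and its part in these values was not tested.

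**Figure D2:**
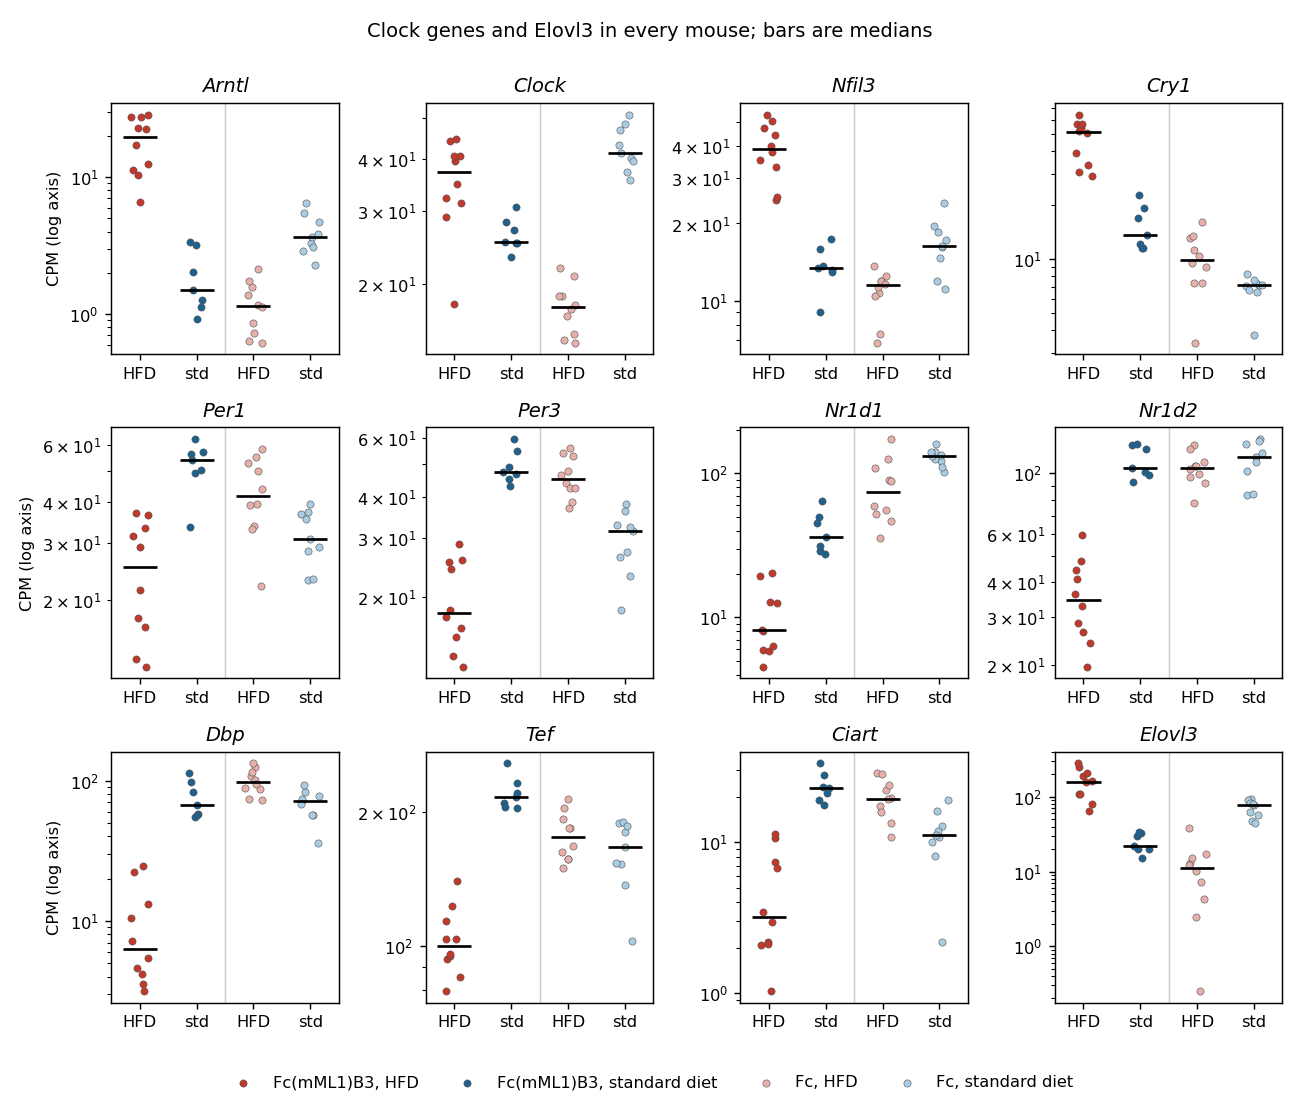
CPM on a log axis of 11 clock genes and Elovl3 in every mouse of the 4 groups, with HFD and standard diet side by side for Fc(mML1)B3 (dark points) and Fc (pale points) and bars at the medians. Arntl, Nfil3, Cry1 and Elovl3 are lower and Dbp, Tef, Per3, Nr1d1, Nr1d2 and Ciart higher under the standard diet in the treated mice, without overlap.

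Within the HFD group Ciart was also the 1 gene of 13465 called between mice 5 to 10 and mice 1 to 4, with a log2 difference of -2.0 (edgeR adjusted p = 0.0236), and 2385 genes had an unadjusted p below 0.05. That comparison was added after seeing the data. Against HFD mice 1 to 4 alone, 7 clock genes rose (4 called) and 4 fell (3 called), and against mice 5 to 10 alone 8 rose (8 called) and 6 fell (4 called).

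Genes of fatty acid synthesis were higher under the standard diet. Of 18 tested, 10 rose (3 called) and 2 fell, with a median of 0.46, and the summed level of the list was 13059.6 to 22397 CPM under the standard diet against 7832 to 13282 CPM under the HFD. Most of that sum under the standard diet was Scd1, with a median of 12153 CPM where the list had 19692 CPM. Scd1, the desaturase that makes oleate from stearate, measured 3096 to 6873 CPM (median 3457) in the HFD mice and 8769.9 to 14692 CPM (median 12153) in the standard diet mice, without overlap (log2 fold change 1.45 ± 0.16 (SE), adjusted p = 1.11e-06). Gpam, which starts glycerolipid assembly, measured 23.3 to 111 CPM (median 42.2) in the HFD mice and 130.1 to 206 CPM (median 161) in the standard diet mice, likewise without overlap (log2 fold change 1.64 ± 0.25 (SE), adjusted p = 3.17e-05). Acaca, the carboxylase that makes malonyl-CoA, rose by 0.78 ± 0.08 log2, Srebf1, the master regulator of the pathway, by 0.95 ± 0.12, and Me1, which supplies NADPH, by 0.72 ± 0.12. Fasn (fatty acid synthase, 1.11 ± 0.19 log2) and Elovl6 (an elongase, 0.97 ± 0.17), both chosen after their values were seen, rose with overlapping mice. In Fc mice Scd1 and Gpam were higher too (1.00 and 1.17, interaction adjusted p = 0.456 and 0.589). The summed level of the list had medians of 11703 CPM under the HFD and 17780.2 CPM under the standard diet there. The median log2 fold change of the list was -0.23 in Fc mice. An interaction was found for 3 of its genes, among them Srebf1 (interaction adjusted p = 0.00460) and Elovl6 (0.0212).

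Another elongase moved against this. Elovl3, which makes very long saturated chains and cycles over the day, measured 65.6 to 282 CPM (median 159.8) in the HFD mice and 15.3 to 34.1 CPM (median 21.8) in the standard diet mice, without overlap (log2 fold change -2.71 ± 0.28 (SE), adjusted p = 3.24e-07). In Fc mice its medians were 11.2 CPM under the HFD and 78.6 CPM under the standard diet, a change of 2.55 on the log2 scale, and the interaction of -5.25 had an adjusted p of 1.03e-08. Elovl3 (chr19:46131899-46135694, plus strand) shares exonic sequence with Pitx3, and counting without regard to strand cannot separate such reads. The same holds for Dbp with Sphk2, Srebf1 with Rai1, Me1 with A330041J22Rik, Abcg5 with Abcg8, Eng with Fpgs, Tagln with Pcsk7, Nr2c2 with Mrps25, Pdpr with 9430091E24Rik and Slc5a6 with Atraid.

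Cholesterol synthesis showed no common direction. Of 25 tested genes 4 rose (1 called), 5 fell and 16 did not pass, with a median of -0.06. Stard4, a sterol carrier, was called with 15 to 36.2 CPM (median 21.4) in the HFD mice and 54.7 to 90.6 CPM (median 67.7) in the standard diet mice (log2 fold change 1.57 ± 0.18 (SE), adjusted p = 1.75e-06). Sc5d, a late sterol desaturase, was higher by 0.34 ± 0.09 log2, whereas Nsdhl and Fdps, which act before it in the pathway, were lower (-0.58 ± 0.13 and -0.57 ± 0.16). In Fc mice the median of the list was -0.83, and 8 genes had an interaction, all above 0. Against the first run of HFD mice 6 rose and 7 fell, and against the second 3 rose and 3 fell, while 3 fell with the length trend removed.

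Genes of fatty acid oxidation and other PPARalpha targets leaned the other way, with 12 of 28 lower (2 called), 2 higher and a median of -0.26. Ucp2, a mitochondrial carrier, measured 72.3 to 122 CPM (median 86.7) in the HFD mice and 41.1 to 55.0 CPM (median 48.6) in the standard diet mice without overlap (log2 fold change -0.97 ± 0.10 (SE), adjusted p = 6.70e-07). The called genes were Fgf21, a hormone of the fasted liver (-1.38 ± 0.28 log2), and Pdk4, which shuts glucose out of oxidation (-1.16 ± 0.31). Slc25a20, the carnitine carrier, and Acadl, an acyl-CoA dehydrogenase, were lower (-0.43 ± 0.09 log2 and -0.43 ± 0.07). Ppara itself was higher, with 156 to 275 CPM (median 226) in the HFD mice and 288 to 384 CPM (median 308) in the standard diet mice. Pdk4 had -0.29 against the first run of HFD mice (adjusted p = 0.408). In the list 15 genes fell against the first run and 8 against the second, and 8 fell with a trend over gene length taken out.

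Lipid droplet genes followed, with 6 of 20 lower, 1 higher, all by less than 2-fold. Plin5, which tethers droplets to mitochondria, measured 53.7 to 89.2 CPM (median 66.3) in the HFD mice and 25.4 to 48.5 CPM (median 37.1) in the standard diet mice (log2 fold change -0.94 ± 0.12 (SE), adjusted p = 4.74e-06). Fabp4, a fatty acid carrier of macrophages and fat, was lower (-0.80 ± 0.09 log2), Mgll, which splits monoglycerides (-0.66 ± 0.09), the droplet protein Plin2 (-0.41 ± 0.10) and the lipase inhibitor Hilpda (-0.68 ± 0.16). Plin5 differed from the Fc mice, where its contrast was 0.09 (interaction adjusted p = 8.27e-04), while Fabp4 had -0.83 there (0.944).

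Among 20 apolipoprotein and lipid export genes, 3 rose, 6 fell and 1 of the latter was called. Apoa4, secreted with triglyceride-rich lipoproteins, was lower (-1.31 ± 0.15 log2). Abca1, the cholesterol efflux pump, measured 86.9 to 151 CPM (median 127) in the HFD mice and 203 to 254 CPM (median 214) in the standard diet mice, without overlap, and Apob, the backbone of very low-density lipoprotein, rose by 0.36 ± 0.10 log2. Against the first run of HFD mice 13 of the 20 fell (median -0.28), and against the second 4 did (median -0.04).

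Bile acid genes were higher under the standard diet in 12 of 22 cases (1 called), and 4 fell, with a median of 0.32. Abcc2, the canalicular exporter of conjugates, measured 155 to 225 CPM (median 190.2) in the HFD mice and 422 to 487 CPM (median 446) in the standard diet mice, with a gap between the groups (log2 fold change 1.25 ± 0.08 (SE), adjusted p = 4.54e-10). Abcc3, its basolateral counterpart, rose by 0.64 ± 0.09 log2, and Abcg5 and Abcg8, which form the sterol exporter, by 0.89 ± 0.13 and 0.98 ± 0.14. Cyp7a1, the rate-limiting enzyme of bile acid synthesis, was picked after its values were seen and measured 92.6 to 252 CPM (median 151) in the HFD mice and 187 to 441 CPM (median 252) in the standard diet mice. In Fc mice Abcc2 was higher too (1.25, interaction 0.02, adjusted p = 0.966), whereas Cyp7a1 was lower there (-1.09, interaction adjusted p = 4.27e-05). Of the list, 5 fell against the first run of HFD mice and 2 against the second.

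Of 27 drug-metabolising genes tested, 10 rose (5 called) and 5 fell (1 called). Ces2a, a carboxylesterase, measured 91.3 to 134.3 CPM (median 121) in the HFD mice and 305 to 386 CPM (median 316) in the standard diet mice, and no mouse lay between the groups (log2 fold change 1.52 ± 0.08 (SE), adjusted p = 4.40e-11). Cyp3a11, the main mouse target of the pregnane X receptor, measured 852 to 2483 CPM (median 1729) in the HFD mice and 4524 to 6413 CPM (median 5096) in the standard diet mice (log2 fold change 1.58 ± 0.15 (SE), adjusted p = 1.22e-07). Cyp2c55 (2.73 ± 0.26 log2), Cyp2c29 (1.62 ± 0.26) and Cyp2a4 (1.55 ± 0.22) were higher without overlap, and standard diet mouse 5 was the highest for the first and second of these, with 23.1 and 2857 CPM. Ugt2b38, a glucuronosyltransferase among the genes of largest change, rose by 2.38 ± 0.33 log2. These families hold near-identical copies, between which reads may be split. Sult1e1, the oestrogen sulfotransferase, chosen after its values were seen, was lower (-2.51 ± 0.48 log2). In Fc mice Ces2a (1.57), Cyp3a11 (1.78), Cyp2c29 (1.63), Cyp2c55 (1.83) and Ugt2b38 (1.71) were higher too. Their interaction adjusted p-values ran from 0.201 for Cyp2c55 to 0.992 for Cyp2c29. In the list 4 genes had an interaction, all above 0. Cyp2a4 had the opposite sign in Fc mice (-1.27, interaction 2.84, adjusted p = 0.00459), but this rests on Fc HFD mice 7 and 8, with 255 and 99.8 CPM. The other 8 Fc HFD mice had 9.89 to 25.3 CPM and the Fc standard diet mice 8.42 to 34.1 CPM. Without those 2 mice, a choice made after seeing the data, the Fc contrast was 0.34 (adjusted p = 0.285) and the interaction 1.23 (edgeR adjusted p = 0.0216). With the length trend removed 2 of the 27 fell.

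Sugar metabolism was mixed, with 5 of 21 genes higher (1 called) and 8 lower (2 called). Pfkfb3, which raises the activator of glycolysis, measured 9.5 to 16.6 CPM (median 15) in the HFD mice and 25.8 to 39.1 CPM (median 31.6) in the standard diet mice, without overlap. Its liver counterpart Pfkfb1 measured 46.4 to 77.7 CPM (median 57.0) in the HFD mice and 19.0 to 41.8 CPM (median 34.3) in the standard diet mice, without overlap in the other direction. Khk, the first enzyme of fructose use, was lower (-0.61 ± 0.08 log2). Igfbp1, a hepatic protein suppressed by insulin, ranged widely, over 11.3 to 112 CPM (median 44.8) in the HFD mice and 6.44 to 25.3 CPM (median 9.77) in the standard diet mice (log2 fold change -2.12 ± 0.39 (SE), adjusted p = 2.36e-04). Ppp1r3c, which targets a phosphatase to glycogen, was lower (-1.64 ± 0.27 log2), and rose in Fc mice by 1.27 (interaction adjusted p = 1.74e-07). Its value was -0.94 against the first run of HFD mice, under the fold limit (adjusted p = 0.00526). In the urea cycle list, 5 of 27 genes rose and 1 fell, with the entry enzyme Cps1 at 0.68 ± 0.11 log2. The first run of HFD mice gave 5 higher and 6 lower there, the second 8 and 1, the group without mouse 5 gave 5 and 3, and the length trend removed 9 and 1. In the sugar list 2 rose against the first run and 5 against the second.

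Methionine, choline and one-carbon genes held some of the largest single changes. However, of 23 tested, 5 rose (1 called), 7 fell (3 called) and 11 did not pass the test, with a median of -0.06. Chka, the kinase that commits choline to phosphatidylcholine, measured 37.5 to 110.4 CPM (median 80.8) in the HFD mice and 16.1 to 32.9 CPM (median 21.7) in the standard diet mice, without overlap (log2 fold change -1.72 ± 0.21 (SE), adjusted p = 3.24e-06). Bhmt, which spends the choline product betaine to remake methionine, was lower (-1.24 ± 0.20 log2). Mtr, which remakes methionine with folate, was higher by 0.84 ± 0.12 log2 without overlap, and so was Mthfd1l, the mitochondrial formate enzyme, by 1.25 ± 0.17. Chka was higher under the standard diet in Fc mice (0.59, interaction adjusted p = 3.21e-08) and Mthfd1l lower (-0.95, 4.09e-05), while Mtr had the same direction (1.06, 0.599). Fc HFD mice 7 and 8 had 13.3 and 19.6 CPM of Mthfd1l. The other Fc HFD mice had 3.65 to 7.39 CPM and the Fc standard diet mice 2.38 to 6.55 CPM.

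**Figure D3:**
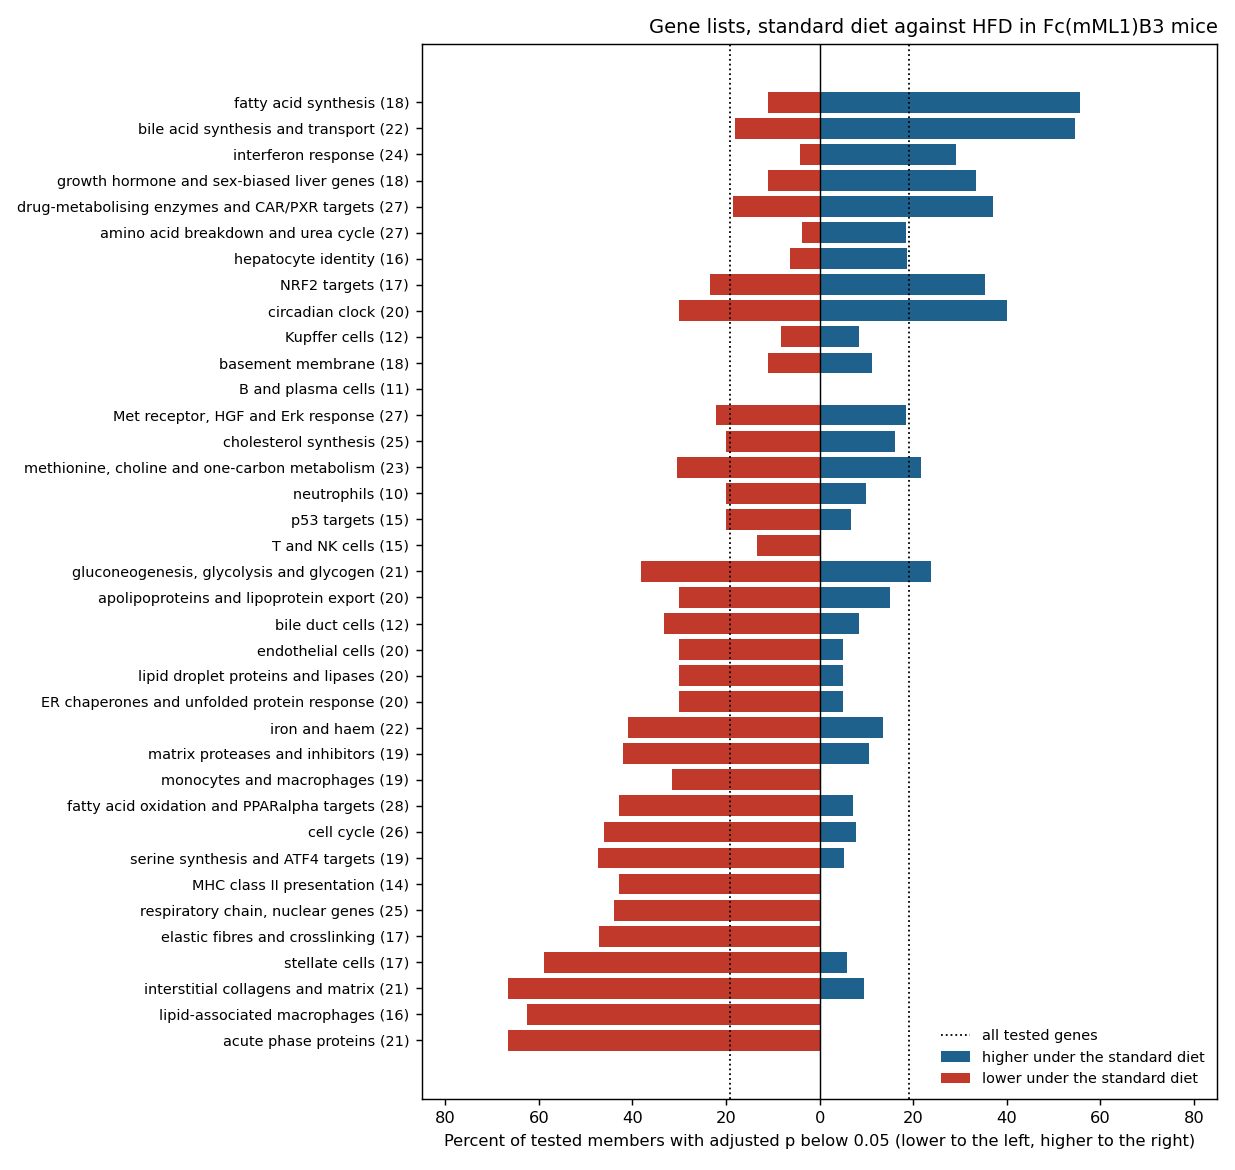
Percent of the tested members of each gene list with at least 10 tested genes (number in parentheses) that were higher (blue, right) or lower (red, left) under the standard diet at an adjusted p below 0.05 in Fc(mML1)B3 mice. Dotted lines mark the share of all tested genes, 19.1% in each direction, and fatty acid synthesis and bile acid genes stand at the upper end and acute phase, macrophage, matrix and stellate lists at the lower end.

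Acute phase proteins, which hepatocytes secrete in inflammation, were lower in 14 of 21 cases (5 called), with a median of -0.46. Saa1 (chr7:46740499-46742980, minus strand) measured 394 to 2367 CPM (median 1216) in the HFD mice and 105 to 199 CPM (median 129) in the standard diet mice (log2 fold change -3.12 ± 0.33 (SE), adjusted p = 5.23e-07). Its near-identical neighbour Saa2 measured 219 to 1985 CPM (median 848) in the HFD mice and 77.3 to 136 CPM (median 83.6) in the standard diet mice (log2 fold change -3.15 ± 0.39 (SE), adjusted p = 3.15e-06). The groups did not overlap for either gene, and reads may be split between the 2 copies. Orm2, an acid glycoprotein, was lower (-1.62 ± 0.24 log2) and Serpina3m, a protease inhibitor (-0.83 ± 0.11), both without overlap. Lcn2, an iron-chelating protein of hepatocytes and neutrophils, measured 61.3 to 297 CPM (median 123) in the HFD mice and 30 to 62.5 CPM (median 36.2) in the standard diet mice, and only the lowest HFD mouse lay below the highest standard diet mouse. Hamp, the iron hormone hepcidin, was lower (-1.08 ± 0.23 log2), and Hfe2, a coreceptor that raises Hamp (-0.64 ± 0.09). The Fc mice gave -2.93 for Saa1, -3.33 for Saa2 and -2.04 for Lcn2, with interaction adjusted p-values of 0.902, 0.894 and 0.859. With a trend over gene length removed, 9 genes of the list fell and 1 rose. Against the first run of HFD mice 16 fell (median -0.71), and against the second 9 did (median -0.24).

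Of 22 genes of haem and iron, Hamp among them, 9 fell and 3 rose, with 10 and 2 against the first run of HFD mice and 7 and 7 against the second, and 5 rose with the length trend removed. Cpox and Uros, enzymes of haem synthesis, were lower (-0.55 ± 0.10 log2 and -0.42 ± 0.07), whereas Fech, which inserts the iron, rose by 0.34 ± 0.07. Clpx, a mitochondrial chaperone that activates the first enzyme of haem synthesis, was among the genes of largest change, with 102 to 316 CPM (median 216) in the HFD mice and 59.5 to 80.0 CPM (median 72.6) in the standard diet mice and no overlap (log2 fold change -1.58 ± 0.19 (SE), adjusted p = 2.26e-06). In Fc mice Clpx had the opposite sign (0.88, interaction -2.45, adjusted p = 4.38e-10).

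Genes of lipid-associated macrophages, the cells that gather around dying fatty hepatocytes, were lower in 10 of 16 cases, all by less than 2-fold, with a median of -0.57. Trem2, their defining receptor, measured 19.5 to 50.8 CPM (median 28.6) in the HFD mice and 11.7 to 22.8 CPM (median 19.7) in the standard diet mice (log2 fold change -0.70 ± 0.17 (SE), adjusted p = 0.00315). Gpnmb, a lysosomal glycoprotein, measured 248 to 783 CPM (median 328) in the HFD mice and 109 to 266 CPM (median 232) in the standard diet mice (log2 fold change -0.92 ± 0.21 (SE), adjusted p = 0.00172). Cd68, a general macrophage marker, measured 48.0 to 108 CPM (median 56.4) in the HFD mice and 29.8 to 47.1 CPM (median 37.3) in the standard diet mice (log2 fold change -0.68 ± 0.15 (SE), adjusted p = 0.00132). The mice overlapped for Trem2 and Gpnmb and not for Cd68. HFD mouse 5 held the highest value of all 3, and without it 9 of the 16 still fell, with a median of -0.46. Of 19 monocyte and macrophage genes 6 fell, but the defining marker Adgre1 (F4/80) did not pass (-0.06 ± 0.11 log2, adjusted p = 0.711), and 8 fell against the first run of HFD mice and 5 against the second. Of 12 Kupffer cell genes Cd163, a haemoglobin scavenger receptor, passed (1.40 ± 0.47 log2) through 2 standard diet mice, and Id3, which sustains these cells, fell (-0.92 ± 0.17), and the resident marker Clec4f had -0.25 ± 0.37 (adjusted p = 0.617). Standard diet mice 1 and 6 had 4.72 and 4.37 CPM of Cd163 and the other 5 had 0.712 to 1.53 CPM, within the 0.251 to 1.89 CPM of the HFD mice. Without mouse 1 its log2 fold change was 1.04 (edgeR adjusted p = 0.0942) and without mouse 6 it was 1.09 (edgeR adjusted p = 0.0840). Against the first run of HFD mice no Kupffer cell gene rose by edgeR at the adjusted p and 4 fell (median -0.26, with Cd163 at 1.06, adjusted p = 0.168), and against the second 2 rose and 1 fell (median 0.30). The median of the list, 0.03 over all mice, thus turned with the run, and by limma-voom Cd163 had an adjusted p of 0.0565.

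Antigen presentation by MHC class II fell in 6 of 14 genes, with the invariant chain Cd74 at -0.66 ± 0.17 log2 and the dendritic cell lectin Cd209a alone past the fold limit (-1.34 ± 0.43), which it did not reach against the first run of HFD mice (-0.72, adjusted p = 0.30). In the T and NK cell list 2 of 15 fell, among them Cd4 with 1.48 to 3.51 CPM (median 2.0) in the HFD mice and 0.496 to 1.03 CPM (median 0.715) in the standard diet mice, while 5 fell against the second run of HFD mice. Of 11 B and plasma cell genes none passed by edgeR at this adjusted p. At an unadjusted p below 0.05 their count was 1, by DESeq2 and limma-voom 0 passed, and with the length trend removed 3 rose. By edgeR an interaction above 0 was found for 5 of them, among them Cd79a, a signalling chain of the B cell receptor (0.46 ± 0.22 log2 in treated mice and -0.44 in Fc mice). Of 10 neutrophil genes 1 rose, S100a8 (0.78 ± 0.23 log2), and 2 fell, Retnlg (-1.31 ± 0.30) and Lcn2, which is also an acute phase gene, and S100a8 did not pass against the second run of HFD mice. Interferon response genes rose in 7 of 24 cases and fell in 1, with the small GTPase Igtp at 0.68 ± 0.15 log2 and Usp18, a brake on the pathway, at 0.56 ± 0.12. For both, the Fc mice had the opposite sign (-0.29 and -0.44, with interaction adjusted p-values of 7.70e-04 and 1.62e-05).

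Stellate cell genes fell in 10 of 17 cases (2 called) and rose in 1, with a median of -0.57. Acta2 (smooth muscle actin), the hallmark of the activated stellate cell (chr19:34240336-34255373, minus strand), measured 3.24 to 36.5 CPM (median 5.94) in the HFD mice and 1.05 to 2.74 CPM (median 2.16) in the standard diet mice (log2 fold change -2.13 ± 0.44 (SE), adjusted p = 6.90e-04). HFD mouse 5 had 36.5 CPM and the other 9 HFD mice 3.24 to 10.9 CPM, all above every standard diet mouse. Tagln and Myl9, other contractile genes, were lower (-0.65 ± 0.19 log2 and -1.07 ± 0.37), and Tgfbi, a matrix protein induced by TGF-beta (-0.82 ± 0.09) without overlap. Vim (vimentin) was lower (-0.82 ± 0.18 log2). Without HFD mouse 5, 8 of the 17 genes fell, with a median of -0.44, and Acta2 alone kept its call, with a log2 fold change of -1.53. Myl9, at 17.2 CPM in that mouse and at most 4.71 CPM in the other HFD mice, came to -0.57 without it, and by limma-voom to -0.55 (adjusted p = 0.0526). In the list 10 fell against the first run and 6 against the second.

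Of 21 interstitial collagens and matrix proteins 14 fell (2 called) and 2 rose, with a median of -0.53. Col1a1 encodes one of the chains of the main scar collagen and measured 47.9 to 188 CPM (median 78.1) in the HFD mice and 30.9 to 49.4 CPM (median 43.6) in the standard diet mice (log2 fold change -1.10 ± 0.21 (SE), adjusted p = 2.96e-04). Col1a2, the other chain, measured 64.9 to 204 CPM (median 91.3) in the HFD mice and 40.4 to 60.7 CPM (median 51.1) in the standard diet mice (log2 fold change -1.0 ± 0.17 (SE), adjusted p = 1.25e-04). Only Col1a1 overlapped between the groups. The small proteoglycan Bgn was lower (-0.83 ± 0.14 log2) and Sparc, a collagen-binding matrix protein (-0.59 ± 0.11), both without overlap. With the length trend removed 0 of the 21 rose. Without HFD mouse 5, 10 of the 21 fell and Col1a1 and Col1a2 were no longer past the fold limit. Among elastic fibre genes 8 of 17 fell, with Emilin1 at -0.75 ± 0.11 log2, Fbln5, which guides elastin assembly, at -0.81 ± 0.14, and Fbln1 and Ltbp2 past the fold limit (-1.34 ± 0.46 and -1.44 ± 0.43), which they no longer passed without HFD mouse 5 (-0.80 and -0.87). Against the first run of HFD mice 5 of the 17 fell, and against the second 10. Among proteases and inhibitors 8 of 19 fell and 2 rose, with the collagen N-proteinase Adamts2 at -0.81 ± 0.15 log2 and the inhibitor Timp3 at -0.71 ± 0.15. Of 18 basement membrane genes 2 rose and 2 fell (median -0.08), whereas 4 rose and 0 fell against the first run of HFD mice, 1 rose and 4 fell against the second, and 0 rose and 7 fell with the length trend removed (median -0.29). The Fc mice had medians of -0.57 for the collagens, -0.87 for elastic fibres and -0.65 for stellate cells, and by edgeR no gene of these 3 lists had an interaction at an adjusted p below 0.05. At an unadjusted p below 0.05 the counts were 1, 2 and 0 in that order, and DESeq2 gave 1, 0 and 0 at the adjusted p.

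**Figure D4:**
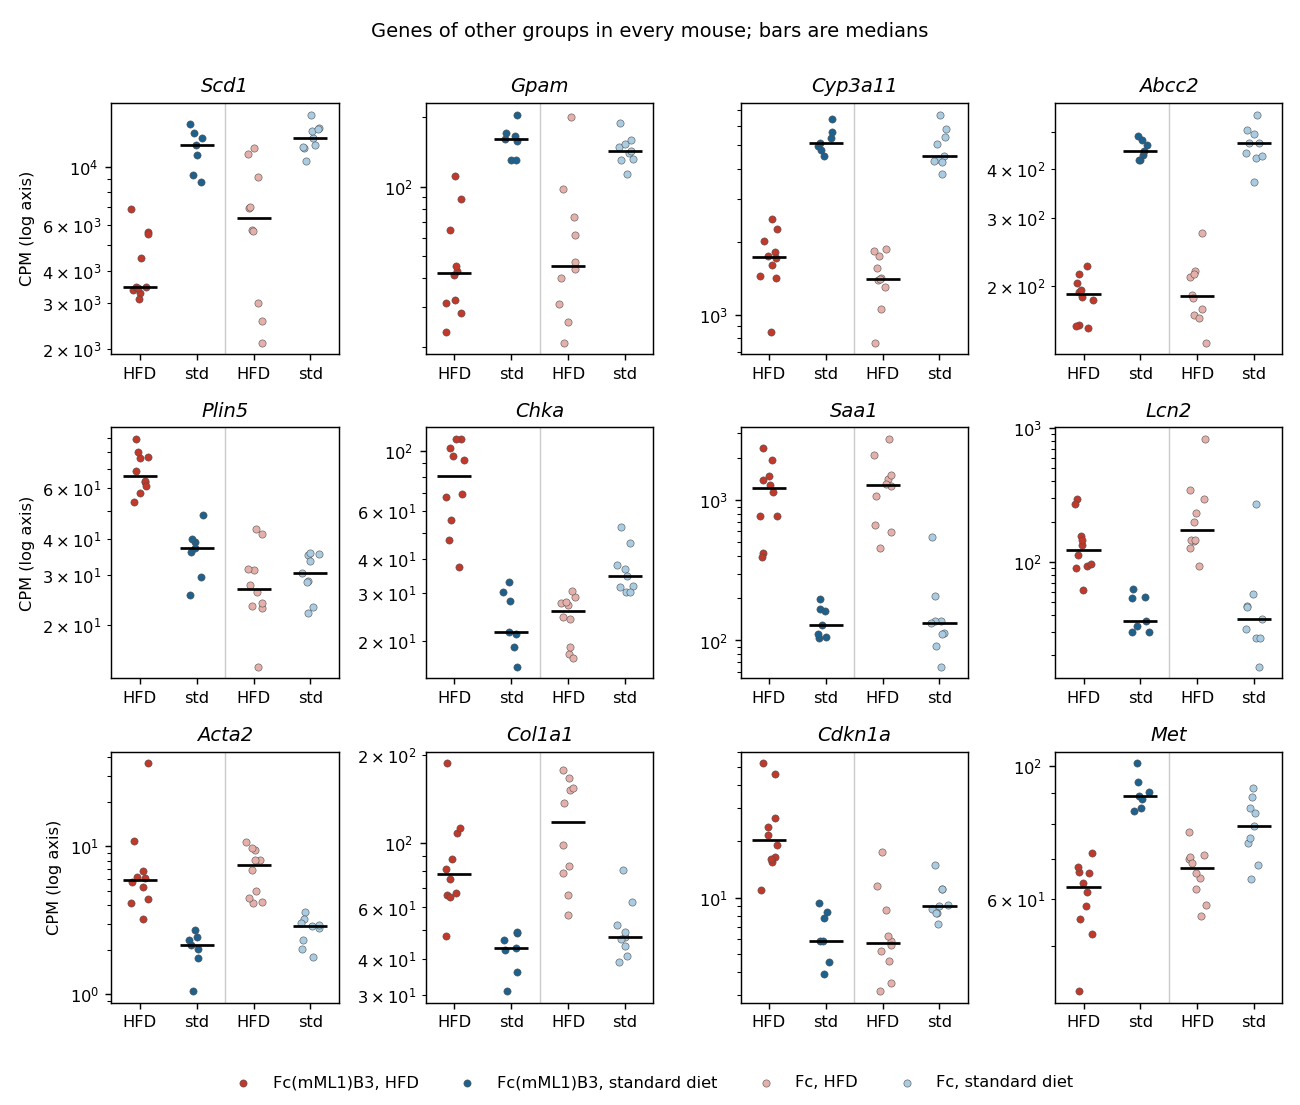
CPM on a log axis of 12 genes of different groups in every mouse, with HFD and standard diet side by side for Fc(mML1)B3 (dark points) and Fc (pale points) and bars at the medians. Scd1, Gpam, Cyp3a11, Abcc2 and Met are higher and Plin5, Chka, Saa1, Acta2 and Cdkn1a lower under the standard diet in the treated mice without overlap, and the single high point of Acta2 and Col1a1 in the treated HFD group is mouse 5.

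Markers of other cells of the liver were checked alongside. Hepatocyte genes had a median of 0.03 over 16 tested, and Alb and Apoa1 measured 0.03 ± 0.13 log2 and -0.17 ± 0.12 with adjusted p-values of 0.860 and 0.260. Of the 16, 3 rose and 1 fell, with 2 and 4 against the first run of HFD mice and 4 and 1 against the second. Endothelial genes fell in 6 of 20 cases, with Eng, a TGF-beta coreceptor, at -0.56 ± 0.07 log2 without overlap and Pecam1 at -0.19 ± 0.08 (adjusted p = 0.0613), and in 9 against the first run of HFD mice and 3 against the second. Bile duct genes fell in 4 of 12 cases (3 and 5 against the first and the second run), with a median of -0.65 that was -0.33 without HFD mouse 5, -0.19 against the first run of HFD mice and -0.85 against the second. Their keratin Krt19 reached 54.0 CPM in HFD mouse 5 and at most 13.6 CPM in the other HFD mice (log2 fold change -1.55 ± 0.47 (SE), adjusted p = 0.0133), and without that mouse its log2 fold change was -0.84. Sox9, a duct and progenitor factor, was lower (-0.88 ± 0.22 log2). Onecut1, a hepatocyte and duct factor, rose by 1.97 ± 0.41 log2. Of 19 markers of fat, intestine and pancreas only 6 had enough reads to be tested. All 6 were below 0, 3 of them fell (2 called), and their median was -0.41, with a summed level of the list of 439 to 964 CPM under the HFD and 282 to 495 CPM under the standard diet. Those that fell were Apoa4 and Fabp2, intestinal genes that liver also expresses, and Cfd. Adipoq, which defines fat cells, was at most 0.532 CPM in any library and the pancreatic Prss1 was at 0 in all, while Cfd, another fat gene, was lower (-1.68 ± 0.30 log2). The haemoglobin genes were listed at 0 in every library, so they check nothing here, and Alas2 of red cell precursors rose by 0.59 ± 0.11 log2. The part of these cells in the results above was not tested.

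Met, the target of the injected protein, (chr6:17463957-17573980, plus strand) was itself higher under the standard diet, with 42.1 to 71.6 CPM (median 62.8) in the HFD mice and 84.0 to 101 CPM (median 89.0) in the standard diet mice and no overlap (log2 fold change 0.56 ± 0.08 (SE), adjusted p = 3.01e-05). Hgf, its natural ligand, measured 2.83 to 11.1 CPM (median 7.04) in the HFD mice and 10.1 to 14.8 CPM (median 12.0) in the standard diet mice (log2 fold change 0.76 ± 0.18 (SE), adjusted p = 0.00240). The Fc mice had 0.25 for Met (interaction adjusted p = 0.0543) and 0.85 for Hgf (0.921). Of 27 genes of the receptor and its Erk response, 5 rose and 6 fell (1 called), close to the share of all genes. Spry1 and Spry2, which Erk induces to restrain itself, were lower (-0.73 ± 0.14 log2 and -0.81 ± 0.17), and the adaptor Grb2 (-0.35 ± 0.05), without overlap for Spry2 and Grb2. The called gene was Etv4, a transcription factor that Erk induces (-1.13 ± 0.34 log2), which lost its call without HFD mouse 5 (-0.93) and against the first run of HFD mice (-0.57, adjusted p = 0.236). In the list 6 rose and 8 fell against the first run, 3 and 8 against the second, and 3 and 6 with the length trend removed.

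Cell cycle genes were lower in 12 of 26 cases (2 called) and higher in 2 (1 called), with a median of -0.34. The mitotic kinases Plk1 and Aurka were lower (-1.10 ± 0.26 log2 and -0.77 ± 0.12), and the mitotic ubiquitin enzyme Ube2c (-0.98 ± 0.19), with Cdkn3, a phosphatase of cyclin kinases, at -1.18 ± 0.35. Against the second run of HFD mice Cdkn3 had -0.85 (adjusted p = 0.0690) and at equal depth -0.93 (adjusted p = 0.0597), and it came under the fold limit by limma-voom (-0.90) and with the length trend removed (-0.96). Plk1 was scarce, with medians of 1.84 and 0.955 CPM, and without HFD mouse 5 its log2 fold change was -0.98. The cyclins of the first growth phase went the other way, with Ccnd1 at 50.5 to 82.0 CPM (median 66.4) in the HFD mice and 86.2 to 139.2 CPM (median 113) in the standard diet mice (log2 fold change 0.73 ± 0.10 (SE), adjusted p = 1.88e-05). Ccne1 measured 0.445 to 2.02 CPM (median 1.15) in the HFD mice and 2.34 to 6.37 CPM (median 2.73) in the standard diet mice (log2 fold change 1.5 ± 0.26 (SE), adjusted p = 1.45e-04), and neither gene overlapped between the groups. Neither rose in Fc mice (-0.15 and -0.14, interaction adjusted p = 0.00528 and 0.00271). Cdkn1a (p21), the inhibitor of cyclin kinases and a p53 target, measured 11 to 52.3 CPM (median 20.4) in the HFD mice and 3.93 to 9.42 CPM (median 5.86) in the standard diet mice, without overlap (log2 fold change -1.95 ± 0.29 (SE), adjusted p = 2.47e-05). Of the other 14 p53 targets 1 rose and 2 fell, among the latter the stress hormone Gdf15 (-0.75 ± 0.20 log2). Against the first run of HFD mice 14 of the 26 cell cycle genes fell (5 called), and against the second 7 did (1 called), while of all 15 p53 targets 3 rose and 4 fell against the first and 1 and 3 against the second.

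Chaperones of the endoplasmic reticulum fell in 6 of 20 cases and rose in 1, with a median of -0.10. Manf, a secreted stress protein, was lower (-0.89 ± 0.18 log2), Creld2, a disulfide isomerase (-0.84 ± 0.23), and the central chaperone Hspa5, chosen after its values were seen (-0.51 ± 0.19), whereas Atf6, a sensor of unfolded protein, rose by 0.53 ± 0.08. Against HFD mice 1 to 4 alone the list turned, with 5 genes higher, 1 lower and a median of 0.07, and against mice 5 to 10 alone 1 rose and 7 fell. In Fc mice the median was 0.58, and 13 of the 20 genes had an interaction, all below 0. Nuclear genes of the respiratory chain fell in 11 of 25 cases with a median of -0.16 and Cox5b at -0.57 ± 0.10 log2. With the trend over gene length removed 2 fell, against the first run of HFD mice 20 and against the second 4. Without the share of all genes that fell in those fits, these counts have no matching background. Of 19 genes of serine synthesis and other Atf4 targets 9 fell and 1 rose, of 17 Nrf2 targets 6 rose and 4 fell (2 with the length trend removed), and of 18 growth hormone-dependent and sex-biased genes 6 rose and 2 fell, Elovl3 among the latter.

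The largest changes of all included genes with no place in these lists. Zbed6, an intronless gene for a growth repressor that lies within another gene (chr1:133655879-133660885, minus strand), measured 0.0872 to 0.641 CPM (median 0.347) in the HFD mice and 7.45 to 9.93 CPM (median 9.16) in the standard diet mice (log2 fold change 4.61 ± 0.22 (SE), adjusted p = 1.97e-11). Pdpr, a subunit of the pyruvate dehydrogenase phosphatase, was higher by 3.63 ± 0.23 log2, Lmbrd2, a membrane protein, by 3.34 ± 0.17, and Uhmk1, a kinase of splicing factors, by 3.23 ± 0.28. The membrane transporter Mfsd4 (3.08 ± 0.34 log2), the nuclear receptor Nr2c2 (2.41 ± 0.20), the kinesin Kif13b (2.39 ± 0.25), the lipase Abhd2 (2.38 ± 0.25) and the centrosomal gene Cep85l (2.88 ± 0.21) were also higher without overlap. All 9 changed in the same direction in Fc mice, by 5.02 for Zbed6 and 3.68 for Pdpr, and their interaction adjusted p-values ran from 0.0697 for Cep85l to 0.976 for Pdpr. That of Cep85l passed in some fits with a single library left out (edgeR adjusted p = 0.0363 to 0.0428). Among the genes that fell most, Pcp4l1, a small calmodulin-related protein, was lower (-1.85 ± 0.18 log2) without overlap.

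Gene length moved with the contrast. Over 10 bins of annotated exon length, the median log2 fold change went from -0.23 at a median length of 875 bases to 0.24 at 7797 bases. In the Fc mice the medians went in the same direction, from -0.27 to 0.32. The genes called higher had a median length of 3539 bases and those called lower 2182, against 2883 over all tested genes. With this trend removed, 211 of the 247 genes called higher and 160 of the 204 called lower kept their call. A pair of RNAs that carry no poly(A) tail, picked after their values were seen, also moved with the diet. Rn45s, the precursor of ribosomal RNA, measured 10.6 to 27.4 CPM under the HFD and 36.8 to 118 CPM under the standard diet (2.14 ± 0.19 log2, edgeR adjusted p = 6.11e-08). The authors took out ribosomal RNA reads before alignment, so these Rn45s counts are only what that step left. Rpph1, the RNA of ribonuclease P, measured 0 to 0.641 CPM and 0.910 to 9.42 CPM (3.31 ± 0.51 log2, edgeR adjusted p = 4.12e-05). Neither overlapped, and the Fc mice had 2.21 and 4.63 (interaction adjusted p = 0.945 and 0.539). The part of library preparation or RNA integrity in the length trend and in the largest changes was not tested.

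The contrast in the treated mice can be set beside that in the Fc mice gene by gene. All 451 called genes were tested in both, and 394 (87.4%) had the same direction in Fc mice, against 75.6% of all 13626 genes tested in both. In Fc mice 321 genes were called higher (2.28%) and 356 lower (2.52%), and 236 of the 451 were called there in the same direction. An interaction was found for 92 of the 451, 46 called higher and 46 called lower, and 50 of the 92 had the opposite sign in Fc mice. Over all 14105 genes of the joint fit, the interaction was above 0 for 657 (4.66%) and below 0 for 621 (4.40%).

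**Figure D5:**
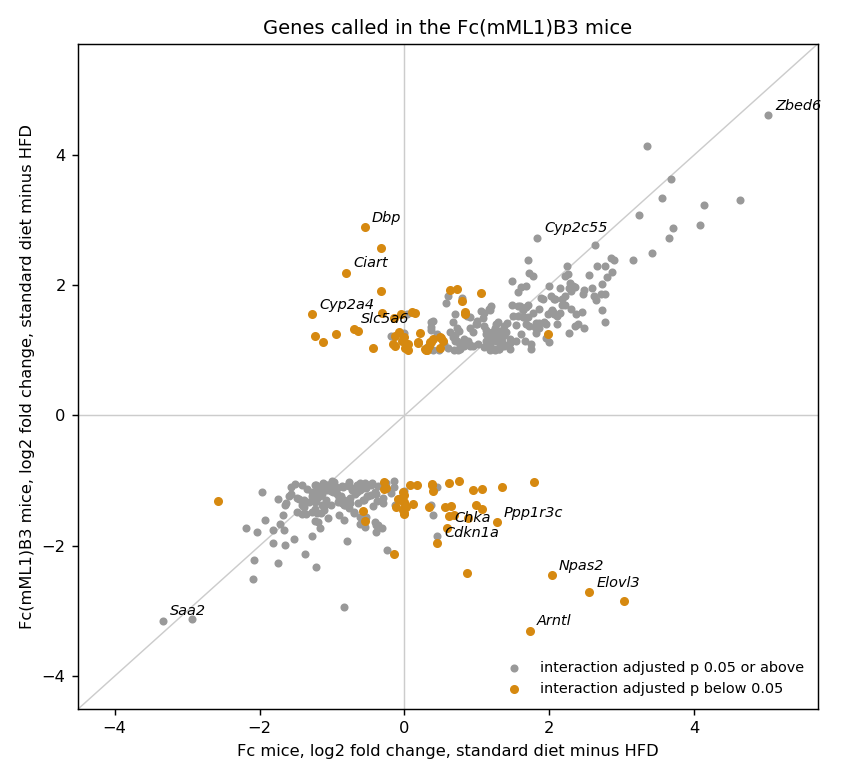
Log2 fold change of standard diet minus HFD in Fc mice (x axis) and Fc(mML1)B3 mice (y axis) for the 451 genes called in the latter, with the 92 genes that had an interaction in orange and the line of equal change in grey. Zbed6 and Saa2 lie near the line and Cyp2c55 above it (2.73 against 1.83 in Fc mice), whereas Arntl, Elovl3 and Npas2 lie at the lower right and Dbp and Ciart at the upper left. Cyp2a4 lies there through Fc HFD mice 7 and 8, without which its Fc contrast was 0.34.

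The genes with the smallest interaction p included Arntl, Clock, Clpx, Dbp and Per3. Slc5a6, the transporter of biotin and pantothenate, measured 7.42 to 14.6 CPM (median 9.77) in the HFD mice and 21.7 to 29.8 CPM (median 25.0) in the standard diet mice, while the Fc medians were 28.4 and 18.4 CPM (interaction 2.06, adjusted p = 1.73e-10). Ngef, an exchange factor of small GTPases, was higher by 0.73 ± 0.09 log2 and Hook2, a microtubule adaptor, by 0.93 ± 0.09, with Fc contrasts of -0.64 and -0.06. Ell3, an elongation factor, had 0.34 ± 0.14 log2 in treated mice (adjusted p = 0.0562) and -1.44 in Fc mice. On the other side, Avpr1a, the hepatic vasopressin receptor, was lower (-1.38 ± 0.18 log2) where the Fc mice had 0.99. Pde9a, a cGMP phosphodiesterase, was lower (-0.81 ± 0.12 log2) against 0.95, Pnp, a purine phosphorylase (-0.36 ± 0.06) against 0.53, and Clock (-0.44 ± 0.13) against 1.27.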

How the data were processed

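Livers of male C57BL/6J mice were sequenced from MGIEasy directional libraries. The authors trimmed reads with fastp, took out ribosomal RNA reads with Bowtie2 2.4.5 and aligned with STAR 2.7.10a. They deposited counts per gene from featureCounts (Subread 2.0.3, mm10), which per the file headers ignored strand. From these raw counts, genes were kept by edgeR's filterByExpr, scaled by TMM and tested by the quasi-likelihood test (edgeR 4.0.16 in R 4.3.3) with diet as the only term in the 17 treated libraries. The interaction was fitted over all 36. P-values were adjusted by Benjamini-Hochberg. The libraries held 14949035 to 28466853 counts, so genes with few reads are the least precise, and no 2 libraries of a group agreed within counting noise (chi-square per degree of freedom 12.0 or more in treated and 6.3 or more in Fc groups). No library was dropped, and the mice of a group were separate animals.

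The genes named were the 12 of largest change per direction among called genes without overlap and with a mean of at least 5 CPM in either group, the 5 of smallest p in each of 39 gene lists, the first markers of each cell type, the genes of the target receptor and ligand and the 6 of smallest interaction p per direction, as far as they bear on the text. The results of 147 tested genes were followed through all alternatives. Among these, Per1, Nr1d1, Npas2, Ciart, Bhlhe41, Fasn, Elovl6, Cyp7a1, Sult1e1 and Hspa5 were chosen after their values were seen, and so were Pdk4, Cd209a, Fbln1, Etv4 and Cdkn3. The members and lists were chosen with earlier results of these data known.

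On simulated data of 13523 genes, 99% of 2-fold changes were recovered and 5.26% of the genes that passed were false. For the interaction 92% were recovered and 6.4% were false. These shares are at an adjusted p below 0.05 alone, without the fold limit of a call. The changed genes were drawn from those with more reads, so genes with few reads were not covered. DESeq2 1.42.0, limma 3.58.1, other scalings, filters, thresholds and subsets of mice were tried as alternatives.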

Additional observations from a re-analysis of the deposited data

Results flagged for a closer look

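Single mice lay far from the rest of their group for 34 of the gene values shown, by a test on the gap to the nearest mouse that chance passes in about 1 of 20 groups. With 147 genes shown and 2 treated groups, chance alone would pass some of the 34. Of these, 19 were the highest value of HFD mouse 5. For macrophage genes it had 28.7 CPM of Fabp4, 783 of Gpnmb, 50.8 of Trem2, 108 of Cd68 and 510.2 of Cd74, and 2.67 of the dendritic cell gene Cd209a. For stellate and matrix genes it had 36.5 CPM of Acta2, 17.2 of Myl9, 239.8 of Tgfbi, 263 of Vim, 188 of Col1a1, 204 of Col1a2, 539 of Bgn, 252 of Sparc, 29.2 of Fbln5, 21.0 of Fbln1 and 38.7 of Ltbp2. The same mouse had 54.0 CPM of Krt19 and 21.3 of Pcp4l1, and the lowest Cps1 with 1802 CPM. These 20 values come from 1 library and are not independent of each other. The remaining HFD values were the highest values of mouse 9 for Fasn (958 CPM) and Lmbrd2 (2.24 CPM), of mouse 2 for Ube2c (5.10 CPM) and of mouse 4 for Cep85l (1.70 CPM). Under the standard diet, mouse 5 was highest for Cyp2c55 (23.1 CPM), Cyp2c29 (2857 CPM) and Sult1e1 (1.51 CPM), and mouse 7 for Ppara (384 CPM), Apoa4 (390.4 CPM) and Ube2c (2.09 CPM), while mouse 7 was lowest for Apoa1 (8244 CPM). Mouse 1 had the lowest Sc5d (385 CPM), mouse 3 the highest Npas2 (0.525 CPM) and mouse 4 the highest Igfbp1 (25.3 CPM).

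For 46 of the genes shown, the contrast of standard diet minus HFD differed between Fc(mML1)B3 and Fc mice by the edgeR interaction at an adjusted p below 0.05, and the values that follow are treated minus Fc on the log2 scale. Clock genes below 0 were Arntl (-5.02), Npas2 (-4.47), Nfil3 (-2.15), Clock (-1.69) and Cry1 (-1.05). Clock genes above 0 were Dbp (3.46), Ciart (3.03), Per3 (1.96), Per1 (1.51), Nr1d2 (1.51), Nr1d1 (1.30) and Tef (1.22). Among lipid and bile acid genes the values were -5.25 for Elovl3, -1.01 for Plin5, 0.76 for Srebf1, 1.22 for Elovl6, 0.64 for Sc5d, 1.30 for Apoa4 (0.79 without Fc HFD mouse 7 and 0.58, adjusted p = 0.167, without Fc HFD mice 7 and 8) and 2.03 for Cyp7a1, with 2.84 for Cyp2a4 (1.23 without Fc HFD mice 7 and 8). Among genes of sugar, choline and folate use they were 0.73 for Pfkfb3, -2.90 for Ppp1r3c, -1.96 for Igfbp1, -2.29 for Chka and 2.22 for Mthfd1l. Interferon genes were above 0, with 1.01 for Usp18 and 0.99 for Igtp, and so were the cyclins Ccnd1 (0.89) and Ccne1 (1.65). Stress genes were below 0, with -2.38 for Cdkn1a, -1.26 for Gdf15, -1.41 for Hspa5, -1.63 for Manf and -1.88 for Creld2. Haem genes were below 0 as well, with -2.45 for Clpx, -0.55 for Cpox and -0.41 for Uros. The remaining values were 1.39 for Ngef, 2.06 for Slc5a6, 1.01 for Hook2, 1.80 for Ell3 and 0.92 for Cd79a above 0, and -2.36 for Avpr1a, -1.74 for Pde9a, -0.86 for Pnp and -0.84 for Id3 below 0.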

How the results depend on the processing

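The counts of called genes, 247 higher and 204 lower, moved by more than 1.5 times with the threshold and with the choice of HFD mice. A fold limit of 1.5 gave 747 higher and 852 lower, no fold limit 2598 and 2608, and a test of the fold limit itself (glmTreat) 55 and 11. HFD mice 1 to 4 alone gave 374 genes higher, and HFD mice 5 to 10 alone 340 lower. Leaving out each mouse in turn gave 235 to 259 genes higher and 150 to 237 lower, the lowest count without HFD mouse 5. DESeq2 gave 292 and 270, limma-voom 279 and 149, and libraries thinned to 14949035 counts 214 and 197. The interaction count of 1278 became 229 with a limit of 1 on the log2 scale. The replicate numbers in the labels did not pair the mice, with correlations of deviations from -0.145 to 0.275 over the 7 numbers. With the replicate block the counts were 267 and 157, of which 226 and 136 were called without it, and the interaction count was 997. The variance between the groups was 30.8% with a prior count of 5. Of the 69 called genes shown, 46 stayed called under all 29 alternatives that kept the threshold. Without HFD mouse 5, 8 lost their call, namely Plk1 (-0.98), Etv4 (-0.93), Col1a1 (-0.91), Ltbp2 (-0.87), Krt19 (-0.84), Col1a2 (-0.83) and Myl9 (-0.57), which kept an adjusted p below 0.05, and Fbln1 (-0.80), which did not. Without other single mice, Per1, Hamp, Col1a2, Plk1 and Pdk4 came to sizes of 0.95 to 1.00, just at the fold limit, and Fbln1 (-1.25 and -1.26 without standard diet mice 1 and 7) and Cd163 had adjusted p-values of 0.0519 to 0.0942. Against HFD mice 1 to 4 alone 16 lost their call. Per3 (0.99), Pfkfb3 (0.97), Ppp1r3c (-0.94), Col1a2 (-0.89), Mthfd1l (0.88), Avpr1a (-0.87), Tef (0.85), Krt19 (-0.83), Per1 (0.75) and Myl9 (-0.74) kept an adjusted p below 0.05 there, and Cd163 (1.06), Cd209a (-0.72), Ltbp2 (-0.57), Etv4 (-0.57), Fbln1 (-0.51) and Pdk4 (-0.29) did not. Npas2 was too scarce to be tested there. Of genes without a call, Clock (-0.13), Hspa5 (-0.08), Creld2 (-0.48) and Sox9 (-0.43) no longer passed in that run. Against mice 5 to 10 alone Fasn (0.99), Retnlg (-0.94), Hamp (-0.91) and Cdkn3 (-0.85) lost their call. By limma-voom 11 did, of which Fbln1 (-0.66, adjusted p = 0.105), Myl9 (-0.55, adjusted p = 0.0526) and Cd163 (1.18, adjusted p = 0.0565) missed the adjusted p and Etv4 (-0.99), Pdk4 (-0.96), Plk1 (-0.90), Cdkn3 (-0.90), Ltbp2 (-0.88), Col1a1 (-0.83), Krt19 (-0.82) and Col1a2 (-0.81) the fold limit. With the length trend removed 6 did, Cdkn3 (-0.96), Tef (0.96), Per1 (0.91), Fasn (0.83) and Hamp (-0.76) by the fold limit and Myl9 (-0.90, adjusted p = 0.0656). At equal depth Cd209a (-1.04, adjusted p = 0.0851), Cdkn3 (-0.93, adjusted p = 0.0597), Col1a2 (-0.98) and Plk1 (-0.98) did, and under other scalings, filters and the fit of all libraries Per1 (0.97) and Col1a2 (-0.98 or closer to the limit). With the replicate block 9 did (Per1, Tef, Myl9, Pdk4, Cd209a, Fbln1 and Etv4, Npas2 at -1.13, adjusted p = 0.0698, and Cd163 at 0.98, adjusted p = 0.0651), and fewer genes fell in the lists of cholesterol synthesis (2), bile acids (2), Nrf2 targets (1), chaperones (2) and the respiratory chain (5). Leaving out each of the 36 libraries in turn, added after seeing the data, gave 1059 to 1540 interactions. Of the 46 interactions of genes shown 42 passed each time, and Apoa4 (lost in 22 of 36 cases), Pfkfb3, Sc5d and Cd79a did not. That of Met passed without any 1 of 6 libraries, with adjusted p-values of 0.0344 to 0.0483. As single libraries were left out, interactions also passed for Pdk4, Aurka, Fasn, Abcg8, Plin2, Cep85l, Fdps, Bhmt, Ppara, Mgll, Cfd, Slc25a20, Apob and S100a8. Without Fc standard diet mouse 5 that of S100a8 went from 1.11 to 1.88 (adjusted p = 0.0166) and its Fc contrast from -0.31 to -1.08. The Fc contrast turned for Cyp2a4 without Fc HFD mice 7 and 8 and, as single libraries were left out, for Ccnd1, Ccne1, Igfbp1, Id3, Cpox and Uros, whose Fc values lay between -0.15 and 0.03. In the treated contrast of the genes shown, signs turned only where the gene had not passed. Bhlhe41 came to -0.06 with the length trend removed and -0.03 against HFD mice 5 to 10. Clec4f came to 0.16 against HFD mice 5 to 10. Alb came to -0.03 with upper-quartile scaling, -0.06 against HFD mice 1 to 4, and -0.03 (without HFD mouse 5) to 0.08 as each mouse was left out. Apoa1 came to 0.03 with the length trend removed and 0.01 against HFD mice 5 to 10. The cause of these shifts was not tested. Depth limits most the genes with few reads, such as Npas2 and Plk1.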
